A study of Drosophila melanogaster with 2 samples.

Results

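The genes described here encode the proteins of the mitochondrial ribosome. They were all protein-coding genes of the Ensembl BDGP6 annotation whose symbol starts with mRpL or mRpS followed by a digit, which gave 73 of 13945 protein-coding genes, 47 for the large subunit and 26 for the small subunit. Binding was measured by chromatin immunoprecipitation with sequencing (ChIP-seq) in transgenic Drosophila melanogaster that stably express ERR, the fly oestrogen-related receptor, with green fluorescent protein (GFP) at its C-terminus, using an antibody against GFP. Whole embryos of both sexes, pooled at 0 to 24 h of age, gave 2 biological replicates, numbered 2 and 3, of a single group, so signals average over all cell types and stages of the embryo. Both replicates carry the same donor label and the tagged ERR, chromatin was sheared by sonication, and a control library was not analysed here.

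Mitochondria translate the few proteins encoded by their own DNA on a ribosome of their own. All proteins of that ribosome are encoded in the nucleus, made in the cytosol and imported, and the proteins made on it are subunits of the oxidative phosphorylation complexes. ERR is an orphan nuclear receptor that binds an extended hexamer in DNA, and its mammalian relatives are known as activators of genes for mitochondrial energy metabolism. The question put to the deposited peak lists was therefore which of these ribosomal genes carry an ERR-GFP peak at a start, and whether the large and small subunits, or promoters shared with a neighbouring gene and promoters serving a single gene, differ in this.

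Many of the peaks found lay in the DNA between the member's start and the start of a gene transcribed in the opposite direction, and 5 such stretches are shown as examples: 3 at peaks among the 5 strongest, where none of the motifs searched was found, and 2 that hold a motif of another promoter factor. They were picked for this and do not show a relation of motifs with peak strength. All are dm6, read from the RefSeq release 6 genome, on the strand of the ribosomal gene, and hold no annotated exon base. The first reaches 100 bp to each side of the mRpS23 summit, between the starts of mRpS23 and CenG1A (chr2L:13835341-13835541, minus strand), and the others are the whole stretch between both starts at mRpS10 and Art3 (chr3R:15229409-15229664, plus strand), mRpL47 and Kdm3 (chr3R:9515909-9516006, minus strand), mRpL32 and qless (chr3R:31252609-31252871, plus strand) and mRpL48 and CG17660 (chr2L:1710422-1710461, plus strand). Capitals mark a match to any of the 9 motifs searched on both strands. The capitals at mRpL32 are the DREF motif TATCGATA and those at mRpL48 the M1BP motif GGTCACACT read from the other strand. The mRpL48 summit lies 10 bp inside the gene, just past the end of its stretch. The mRpS23 stretch is only part of the DNA between both starts. Outside it, from 250 bp before to 50 bp from the mRpS23 start, lie a DREF motif and, with 1 mismatch allowed, the ERR sequence TNAAGGTCA.
mRpS23: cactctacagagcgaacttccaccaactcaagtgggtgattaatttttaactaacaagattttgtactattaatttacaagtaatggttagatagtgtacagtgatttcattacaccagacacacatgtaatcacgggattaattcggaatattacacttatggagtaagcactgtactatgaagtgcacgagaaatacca
mRpS10: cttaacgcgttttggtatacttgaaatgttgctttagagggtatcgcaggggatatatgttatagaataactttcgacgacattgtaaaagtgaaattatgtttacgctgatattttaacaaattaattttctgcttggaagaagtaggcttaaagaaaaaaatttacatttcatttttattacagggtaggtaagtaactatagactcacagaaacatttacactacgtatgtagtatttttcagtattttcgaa
mRpL47: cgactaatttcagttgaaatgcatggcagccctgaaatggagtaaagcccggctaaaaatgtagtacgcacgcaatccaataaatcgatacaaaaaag
mRpL32: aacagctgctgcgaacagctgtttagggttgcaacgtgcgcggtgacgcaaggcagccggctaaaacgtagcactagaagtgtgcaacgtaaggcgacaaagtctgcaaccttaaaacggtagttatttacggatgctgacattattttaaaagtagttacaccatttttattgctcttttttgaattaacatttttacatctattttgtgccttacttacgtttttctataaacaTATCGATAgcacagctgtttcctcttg
mRpL48: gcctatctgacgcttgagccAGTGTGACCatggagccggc

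Of the 73 genes, 20 (27.4%, 95% Wilson interval 18.5 to 38.6) had the summit of an optimal peak within 500 bp of a start, where 15.1% of all protein-coding genes did. The optimal peaks are the 2892 regions that the authors kept from the pool of both replicates. They need not rank high in each replicate alone. Their signal is the peak caller's own unit and is not scaled between lists, so ranks are given beside it. The 20 genes had 20 different peaks with a median signal of 109, close to the median of 102 over the 2105 protein-coding genes with such a peak. Intervals on shares treat genes as independent draws and cover counting error only. In the higher-signal 50% of the optimal peaks, 11 members (15.1%) had a summit at a start, against 8.16% of all genes. No p-value is given, because both libraries belong to a single group and genes are not replicates.

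Replicate 2 contributed more members than replicate 3. Among the 2892 highest regions of replicate 2 alone, 23 members (31.5%, 22.0 to 42.9) had a summit at a start, against 15.7% of all genes. In replicate 3 alone there were 13 (17.8%, 10.7 to 28.1), against 14.2% of all genes, so in that library the members' share was near the share of all genes. These 13 were also among the 23, and 10.8% of all genes were called in both. All 20 members with an optimal peak were in the top of replicate 2 and 13 of them in the top of replicate 3. The optimal list comes from the pool of these same libraries, so some of this overlap is built in. The same counts over all genes with an optimal peak are not given, so whether 13 of 20 is usual is not shown. Across the 54 members with a region at a start in both full lists, Spearman's rho of signal was 0.702, against 0.708 over 6506 protein-coding genes. Signals in replicate 2 were a median of 1.38 times those in replicate 3 for those members and 1.30 times for those genes. The points share libraries and some share peaks, so these are descriptions.

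**Figure D1:**
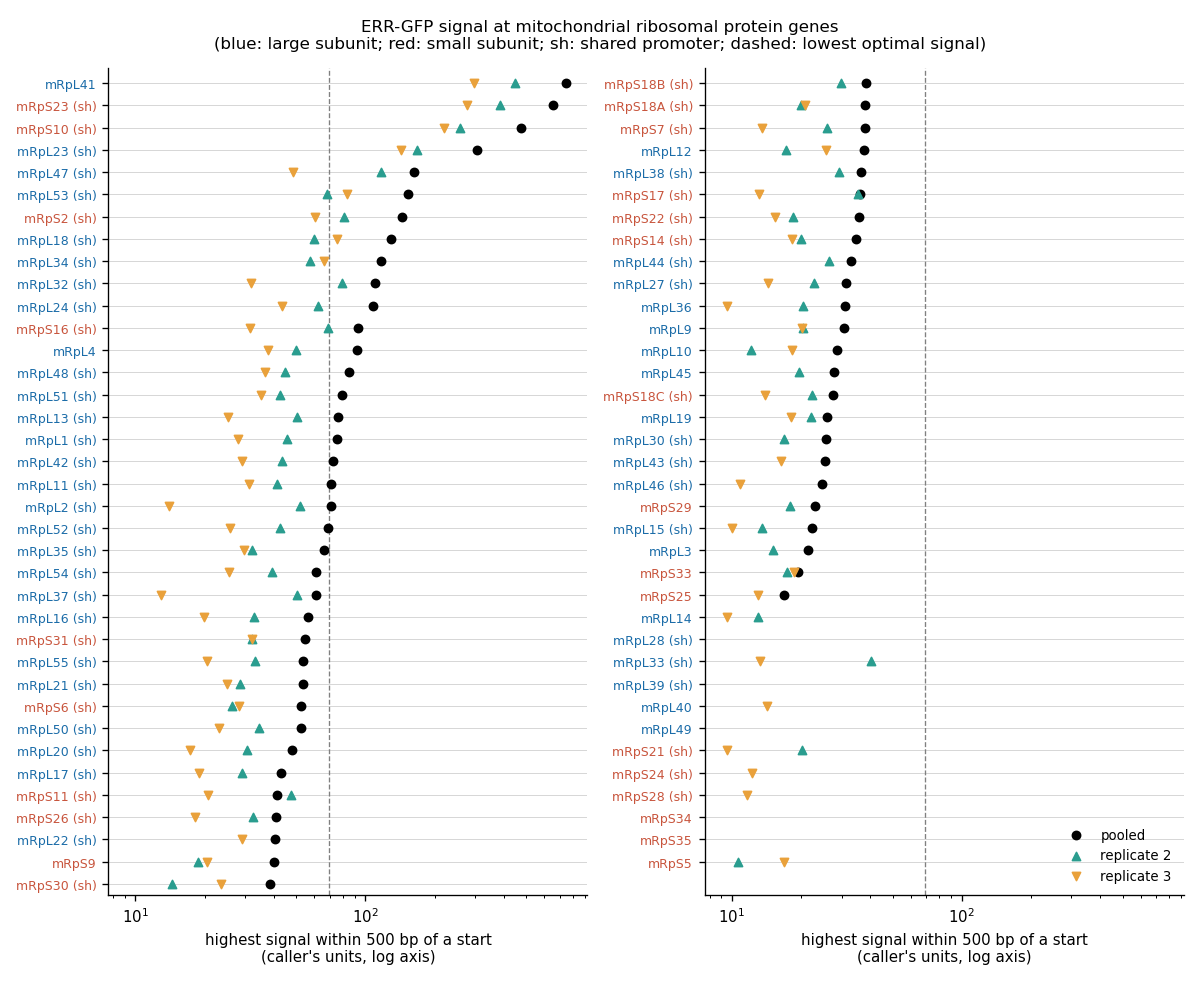
Highest signal within 500 bp of a start (caller's units, log axis) for each of the 73 genes in the pooled list and in each replicate, with genes in order of pooled signal. The dashed line is the lowest optimal signal, 69.2, and 20 genes lie to its right in the pooled list, from mRpL41 at 742.6 to mRpL2 at 70.6.

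The highest signals were at mRpL41, mRpS23, mRpS10 and mRpL23. At mRpL41 (FBgn0034001; 2R, 15217024 to 15217617), whose mammalian counterpart is a subunit with no bacterial relative, the signal was 742.6 in the optimal list, 449 in replicate 2 and 297.5 in replicate 3. At mRpS23 (FBgn0260407; 2L, 13834250 to 13835072), also known in mammals as a subunit particular to mitochondria, it was 655 in the optimal list, 385 in replicate 2 and 276 in replicate 3. These peaks stood at ranks 23 and 29 of the optimal list, 19 and 24 in replicate 2, and 27 and 31 in replicate 3, so both libraries placed them near the top. At mRpS10 (FBgn0038307; 3R, 15229665 to 15230516), which has a bacterial counterpart in the small subunit, the signal was 477 in the optimal list, 257 in replicate 2 and 219.6 in replicate 3, with ranks 54, 63 and 51. At mRpL23 (FBgn0035335; 3L, 2372844 to 2373704), the counterpart of a bacterial protein at the exit of the ribosomal tunnel, it was 305 in the optimal list, 168 in replicate 2 and 143 in replicate 3, with ranks 119, 132 and 116. After these a gap followed, since the next member reached 163.

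The 8 members below them, with signals from 93.2 to 163, were ranked less alike by the libraries. mRpL47 had an optimal signal of 163, with 117 in replicate 2 and 48.5 in replicate 3, and fell from rank 296 to rank 1220 between these libraries. mRpL32 had 110, with 79.2 and 31.9, at ranks 749 and 2986. mRpS16 had 93.2, with 69.0 and 31.5, at ranks 996 and 3056. At mRpL53, mRpL18 and mRpL34 the order was the opposite, with signals of 67.9, 59.7 and 57.5 in replicate 2 and of 83.3, 75.6 and 65.9 in replicate 3. These 3 were the only ones of the 20 with a higher signal in replicate 3, in units not scaled between lists. Their ranks were 1038, 1366 and 1476 in replicate 2 and 357, 454 and 611 in replicate 3. By rank mRpS10, mRpL23, mRpL48 and mRpL51 also stood higher in replicate 3. mRpS2 (144, with 80.8 in replicate 2 and 60.3 in replicate 3) and mRpL24 (108, with 62.0 and 43.5) lay between.

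The remaining 8 optimal peaks had signals from 70.6 to 92.0, between the lowest optimal signal of 69.2 and the optimal list's median of 97.8. mRpL4, the counterpart of a bacterial protein of the tunnel wall, had 92.0 in the optimal list, 50.1 in replicate 2 and 37.7 in replicate 3. mRpL48 had 84.5, mRpL51 79.4, mRpL13 76.2, mRpL1 75.4, mRpL42 72.4 and mRpL11 71.0, with 41.3 to 50.2 in replicate 2 and 25.3 to 36.5 in replicate 3. mRpL2, whose bacterial counterpart lies near the peptidyl transferase centre, had 70.6, with 52.0 in replicate 2 and 14.0 in replicate 3, where it ranked 15489. Its ratio of replicate 2 to replicate 3, 3.72, was the highest of the 20, and its place in the optimal list went with replicate 2.

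**Figure D2:**
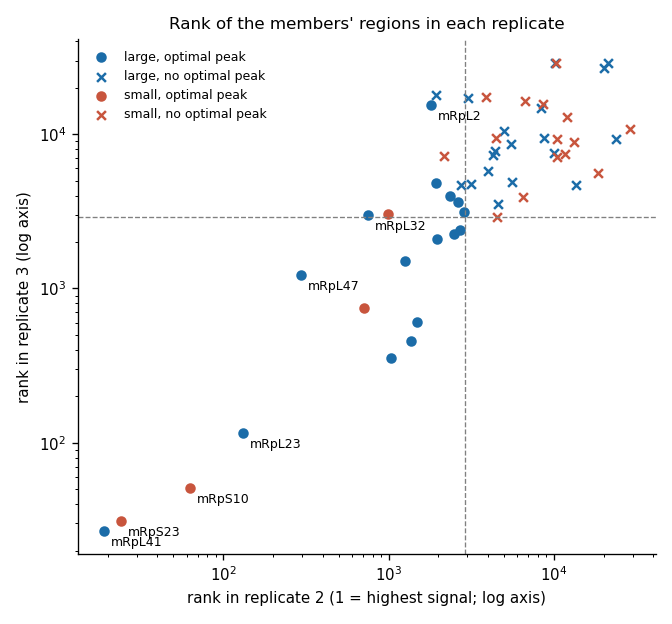
Rank of each member's highest region at a start in replicate 2 (x axis) and replicate 3 (y axis), both on log axes with rank 1 the highest signal, for the 54 members present in both lists. The dashed lines mark rank 2892, and mRpL41, mRpS23, mRpS10 and mRpL23 sit at the lower left, while mRpL2 ranks 1814 in replicate 2 and 15489 in replicate 3.

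Most other members had a weaker region in the pooled list, which also holds background. A pooled region lay at a start of 61 of 73 members (83.6%, 73.4 to 90.3), against 56% of all protein-coding genes. The 41 members with a pooled region but no optimal peak had signals from 16.9 to 68.9 with a median of 37.7. The 5 highest of them were mRpL52 (68.9), mRpL35 (66.2), mRpL54 (60.8), mRpL37 (60.7) and mRpL16 (56.3). All but mRpL16 had the highest deposited −log10 q, 3.89, as the optimal peaks do, and mRpL16 had 3.45. mRpL37 ranked 1938 in replicate 2 and 17984 in replicate 3. No pooled region lay at a start of 12 members, 6 of the 47 for the large and 6 of the 26 for the small subunit. Of these 12, 7 had a region in the list of at least a single replicate. The full lists of replicates 2 and 3 had a region at a start of 56.1% and 54.3% of all genes. tko and bonsai, which encode mitochondrial ribosomal proteins under other symbols, had pooled signals of 54.0 and 64.7 and no optimal peak.

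The share of genes with a peak was higher for the large subunit, with an interval on the difference that includes 0. An optimal peak lay at 16 of 47 large subunit genes (34.0%, 22.2 to 48.3) and at 4 of 26 small subunit genes (15.4%, 6.15 to 33.5), where 15.1% of all protein-coding genes had one. The difference was 18.7 percentage points, with a 95% Newcombe interval from -3.03 to 35.7. In replicate 2 alone it was 19.1 points (18 and 5 genes) and in replicate 3 alone 9.74 points (10 and 3 genes). The 4 small subunit peaks, at mRpS23, mRpS10, mRpS2 and mRpS16, had a median signal of 310.3, and the 16 large subunit peaks had a median of 100.2, from 70.6 at mRpL2 to 742.6 at mRpL41. Over every member with a pooled region the order was the opposite, with a median of 56.3 for 41 large subunit genes and 38.4 for 20 small subunit genes.

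Shared promoters were frequent among these genes. A start of another protein-coding gene lay within 500 bp of a start of 54 of the 73 (74.0%), against 30.9% of all protein-coding genes, and 53 of these 54 had such a neighbour on the opposite strand. Large and small subunit genes were alike in this, at 74.5% and 73.1%. Members did not have more starts than other genes. A single annotated start was present in 91.8% of members and 73.5% of all genes, and the windows searched averaged 1013 bp per member and 1251 bp per gene.

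Members with a shared promoter had a peak at 18 of 54 genes (33.3%, 22.2 to 46.6), where 27.1% of all genes with shared promoters did. Members with a promoter of their own had one at 2 of 19 (10.5%, 2.94 to 31.4), mRpL41 and mRpL4, where 9.73% of all such genes did. Within each class the members' share was thus near that of other genes, and both all-gene values lie inside the members' intervals. At the all-gene share of each class the 73 members would hold 16.5 genes with a peak, against the 20 found. The difference between the classes was 22.8 percentage points among members (Newcombe interval -0.825 to 38.1). The interval's lower bound lies close to 0 and changed side with the settings. It was 28.4 points (4.37 to 43.7) in replicate 2 alone and 9.84 points (-12.7 to 24.5) in replicate 3 alone, where 11 shared and 2 single-gene promoters were called. In that library the members' shares of 20.4% and 10.5% stood against 25.3% and 9.23% of all genes of each class, so members with shared promoters were below other such genes there and above them in the optimal list. A start within 1000 bp, in place of 500 bp, made all 20 peaks belong to 60 shared promoters and left 0 for 13 single-gene ones (33.3 points, 8.18 to 45.9), because mRpL41 and mRpL4 each have a neighbour in that range. All-gene shares under that definition are not given. At 500 bp all genes also had a larger share at shared promoters (27.1% against 9.73%), so the difference is not shown to be particular to members.

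Genes for the cytosolic ribosome, which translates nuclear transcripts, had a peak at a larger share. An optimal peak lay at 48 of 92 of them (52.2%), and mitochondrial minus cytosolic was -24.8 points (Newcombe interval -38.1 to -9.73). In the tops of replicates 2 and 3 the cytosolic shares were 59.8% and 47.8%, against 31.5% and 17.8% for the mitochondrial genes. Only 40.2% had a shared promoter. With shared promoters 64.9% of cytosolic genes and 33.3% of mitochondrial genes had a peak, a difference of -31.5 points (-48.9 to -10.6), and with single-gene promoters the values were 43.6% and 10.5%, a difference of -33.1 points (-48.2 to -8.91). All-gene shares would have given 15.4 cytosolic genes. The highest cytosolic signals, at RpL7 (359), RpL23A (280.1), RpS28a (246) and RpL14 (228), were below those of mRpL41, mRpS23 and mRpS10.

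**Figure D3:**
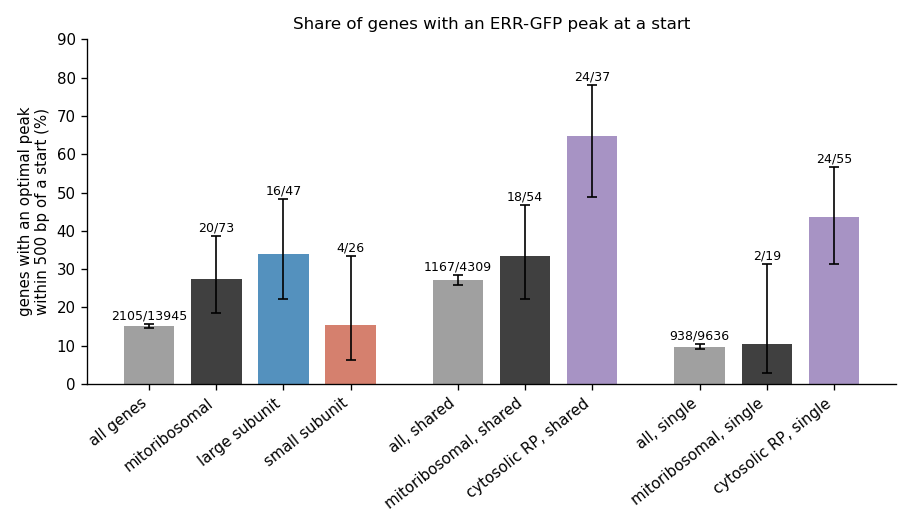
Share of genes (%) with an optimal peak within 500 bp of a start, for all protein-coding genes, the mitochondrial ribosomal genes by subunit, and each promoter class, with bars from 0, 95% Wilson intervals as whiskers and gene counts above them. Mitochondrial ribosomal genes stand at 33.3% with shared and 10.5% with single-gene promoters, near the 27.1% and 9.73% of all genes, and cytosolic ribosomal genes at 64.9% and 43.6%.

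The strongest peaks were shared with genes of varied function. At the mRpS23 peak (2L, 13835302 to 13835621), CenG1A, encoding an Arf GTPase-activating protein, starts 123 bp from the summit and mRpS23 369 bp from it. At the mRpS10 peak (3R, 15229369 to 15229678), Art3, encoding a protein arginine methyltransferase, starts 107 bp away and mRpS10 150 bp away. CG9004 starts 73 bp from the mRpL23 summit (peak at 3L, 2373481 to 2373778), which lies in the 5' UTR of mRpL23 and 23 bp from its nearest start. The mRpL41 peak (2R, 15217595 to 15217946) had no other protein-coding start within 500 bp of its summit. The non-coding gene lncRNA:CR44463 starts 422 bp and CG8079 606 bp from it.

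Among the next peaks, CG8176 and the histone demethylase gene Kdm3 both start 25 bp from the mRpL47 summit. The Argonaute gene AGO1, CG33155 and mRpL53 each start 85 bp from a single summit, and CG33155 and mRpL53 have the same annotated start. Mon1, which acts in endosome maturation, starts 28 bp from the mRpS2 summit. Taz, for the cardiolipin-remodelling enzyme tafazzin, starts 133 bp from that of mRpL18, Dg, for dystroglycan, 114 bp from that of mRpL34, and qless, for an enzyme of coenzyme Q synthesis, 182 bp from that of mRpL32. betaggt-I, for a subunit of a protein prenylation enzyme, starts 51 bp from the mRpL24 summit, and cg, for a zinc-finger transcription factor, 30 bp from that of mRpS16. Which gene of each pair a peak serves was not tested.

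Summits lay upstream of the member in 18 of 20 cases, at a median distance of 83.5 bp and from 10 to 369 bp from its nearest start. The other 2, at mRpL23 and mRpL48, were in the member's own 5' UTR. By annotation 15 summits were intergenic, 4 in a 5' UTR (2 of them of Taz and HtrA2, the gene of a mitochondrial protease) and 1 in an intron of AGO1. Of the 18 peaks near another protein-coding start, 17 had that start on the opposite strand, with a median of 136 bp between both starts, and 13 of the summits fell between the nearest such start and the member's nearest start. At mRpL23 and mRpL11 the summit lay between starts only when more distant annotated starts of the pair were counted, which gave 15. mRpL13 was the exception, since its start coincides with that of CG10602 on the same strand. The nearest start was the neighbour's for 11 peaks, the member's for 7 and tied for 2. Counting only the last 9, 12.3% of members had a peak whose nearest start was theirs, ties included, against 11.3% of all genes counted the same way. Among genes with an optimal peak these were 9 of 20 members and 1579 of 2105 genes, so member peaks more often lay nearest to another gene's start. Promoter class differed too, since 18 of these 20 members and 1167 of these 2105 genes had shared promoters. Most of these 9 peaks also had another gene's start within 500 bp. No member summit lay between 400 and 500 bp, and the nearest outside was 593 bp from mRpL33, at a peak of signal 76.7 whose nearest gene was norpA. Summits in replicate 2 lay at most 59 bp from the optimal ones (median 5.5 bp) and in replicate 3 at most 140 bp (median 5.5 bp), with 20 and 18 of the 20 within 100 bp. mRpS16 and mRpL34 were the 2 beyond it. The optimal summits come from the pool of these same libraries, so they are not independent of either.

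**Figure D4:**
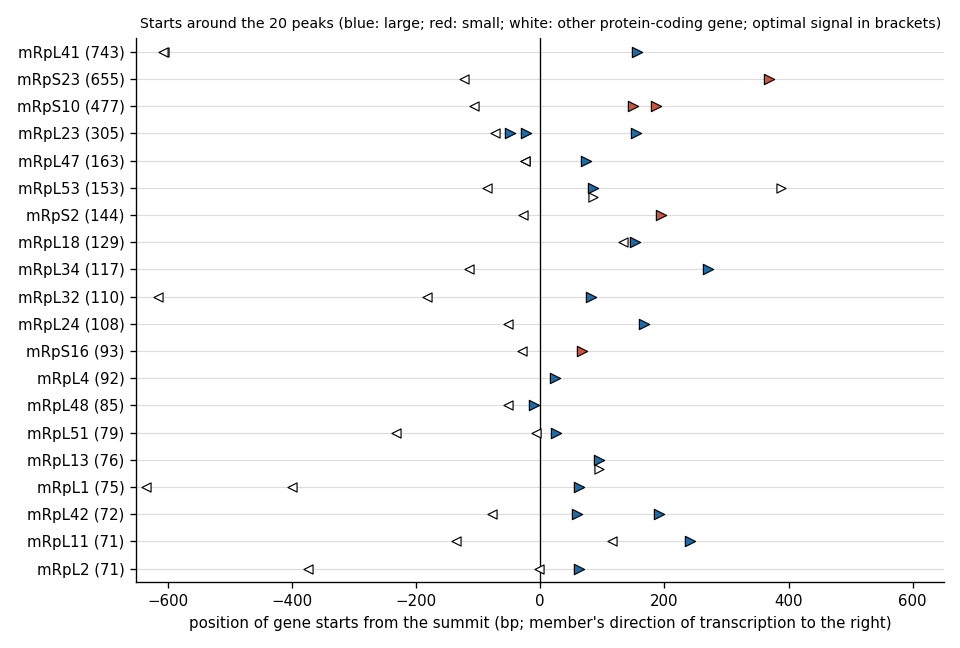
Annotated protein-coding starts around the 20 optimal summits (x axis, bp from the summit, with the member's direction of transcription to the right), with members in order of optimal signal. Filled triangles are the members' starts and white ones those of other genes, drawn lower where both coincide, and at 11 peaks a white triangle is nearest to the summit.

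No member peak held a match to the ERR sequence. TNAAGGTCA, where N is any base, its core AAGGTCA and the hexamer AGGTCA were each found in 0 of 20 windows reaching 100 bp to each side of the summits, shares whose upper Wilson bound is 16.1%. Over the 1710 optimal peaks near any protein-coding start the shares were 1.17%, 3.10% and 5.61%, and over all 2892 optimal peaks 1.63%, 3.80% and 6.71%. The shorter sequences lie inside the longer ones. Allowing 1 mismatch at the 8 fixed bases of TNAAGGTCA also gave 0 of 20, against 12.8% of peaks near a start and 15.1% of all optimal peaks. Windows reaching 250 bp to each side held none of the 3 exact sequences either. The upper bound for 0 of 20 lies above all of these shares, so a lower share at members is not shown, and no match says only that these letters are not in the windows. The stretches of mRpS23 and mRpS10 printed above hold the whole window of 100 bp to each side and show this for strong peaks. That of mRpL47 covers only part of its window.

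Motifs of other promoter factors were found in 5 windows. The DREF motif TATCGATA lay in those of mRpL32 and mRpL4 (2 of 20; 9.12% of peaks near a start), and at mRpL4 the match began 19 bp downstream of the start. The M1BP motif GGTCACACT, whose first 5 letters also end the ERR hexamer, lay in those of mRpL48 and mRpS16 (2 of 20; 4.68%), and the E-box CACGTG in that of mRpL23 (3.27%). None held the GAF motif GAGAGAG (7.31% of peaks near a start), the NRF-1 core GCGCATGC (0.409%) or the nuclear respiratory gene (NRG) element of flies, searched as TTATGTAA, TTACATAA, TTATATAA and TTACGTAA (2.57%). These counts depended on the width. Windows reaching 250 bp to each side held the NRG element in 3 of 20, the DREF motif in 3, the M1BP motif in 4 and the E-box in 3. The GAF motif and the NRF-1 core were still absent, and no share over other peaks is given at that width.

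In the promoters of all members, taken as 250 bp before to 50 bp from the outermost start, the DREF motif was the most frequent of the 9. It lay in 15 of 73 (20.5%, 12.9 to 31.2), against 9.36% of all protein-coding promoters and 16.1% of those shared by several genes. It was found at 3 of 20 members with an optimal peak and 12 of 53 without. The M1BP motif lay in 11.0% of members' promoters, 6.05% of all and 10.9% of shared ones, and the NRG element in 8.22%, 5.18% and 5.94%. AGGTCA lay in 1 promoter of 73, against 5.88% of all. Split by promoter class, the DREF motif lay in 8 of 54 shared members' promoters (14.8%, 7.70 to 26.6; 16.1% of all shared ones) and in 7 of 19 single-gene ones (36.8%, 19.1 to 59.0; 6.34% of all single-gene ones). The members' higher DREF share was thus found at single-gene promoters. Among the members' 19 single-gene promoters only those of mRpL41 and mRpL4 had an optimal peak. The DREF motif lay in that of mRpL4 but not in that of mRpL41. The M1BP motif lay in 8 of 54 shared (14.8%) and 0 of 19 single-gene promoters (upper bound 16.8%; 3.86% of all).

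**Figure D5:**
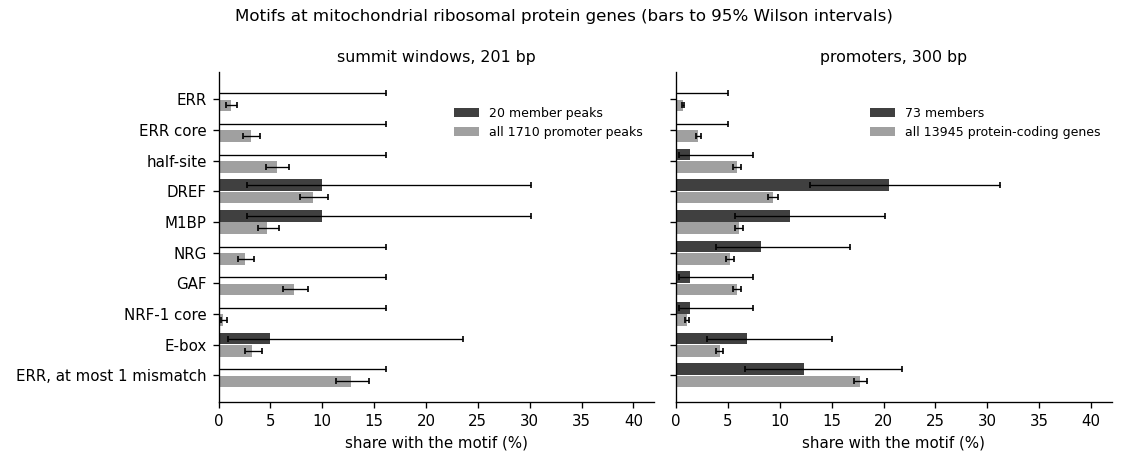
Share (%) of summit windows (left) and promoters (right) that hold each motif, for the mitochondrial ribosomal genes (black) and for all peaks near a start or all protein-coding genes (grey), with 95% Wilson intervals. The 3 ERR sequences were in 0 of 20 member windows, and the DREF motif was in 20.5% of members' promoters against 9.36% of all.

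Other genes of mitochondrial gene expression and protein import had a peak in 6.67 to 22.2% of cases. Mitochondrial translation factors had a peak at 2 of 9 genes, mRF1 (a release factor, signal 81.1) and mEFTu2 (an elongation factor, 70.2). Mitochondrial aminoacyl-tRNA synthetases had one at 1 of 15, ArgRS-m (75.1). Genes for the upkeep of mitochondrial DNA and RNA had one at 2 of 14, PNPase (819, a polynucleotide phosphorylase, promoter shared with Gprk2) and mtSSB (111, the single-stranded DNA binding protein). Protein import genes had one at 2 of 15, the outer membrane gene Tom7 (149.5) and the intermembrane space chaperone gene Tim10 (86.4). Against the 15.1% of all genes, these counts are 22.2%, 6.67%, 14.3% and 13.3%, and with 15 genes or fewer per list their Wilson intervals all include that value. PNPase, at ranks 17, 15 and 22 in the optimal list and replicates 2 and 3, was the only one of these genes above mRpL41.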

How the data were processed

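The files analysed were lists of regions (narrowPeak) on the dm6 build, namely the optimal set, the pooled list and a list per replicate. The signal of each region and its −log10 q-value are the caller's, as the authors deposited them, and are not scaled between lists. Per the notes deposited with the files, the optimal set was chosen by the irreproducible discovery rate. It is identical to the 2892 highest regions of the pooled list. Which aligner and caller were run is not given in the sources used here. Depth is unknown, since the lists hold no read counts. The dm3 lists were not used.

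Starts are the 5' ends of all transcripts in Ensembl release 115 (BDGP6.54), and arm lengths of the RefSeq release 6 genome fit the regions. A gene's signal is the highest among regions whose summit lies within 500 bp of a start. A promoter is shared where another protein-coding gene starts within 500 bp. Shares have 95% Wilson intervals and differences Newcombe intervals. Scripts (Python 3.11.15, pandas 2.3.3, SciPy 1.17.1) were tested on simulated data. Members and lists were chosen with earlier results of these data known. Named genes are all members with an optimal peak, the next 5 by pooled signal, genes sharing the 12 strongest peaks, members with a summit just inside or outside the distance limit, tko, bonsai and up to 4 per related list. norpA, HtrA2, CG10602, CG17660, CG8079, lncRNA:CR44463 and Gprk2 were named after their values were seen. Of 12 listed translation factor symbols, 3 matched no gene model and were left out. Alternatives were distances of 200 and 1000 bp, overlap in place of summits, the higher-signal 50% of peaks, each replicate alone, 1 start per gene, other definitions of a shared promoter, and narrower and wider motif windows. The mismatch search, the splits by subunit and promoter class together, the motif shares by promoter class and the count by nearest start were added after seeing the data.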

Additional observations from a re-analysis of the deposited data

How the results depend on the processing

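No alternative tried reversed the direction of the large against small subunit or the shared against single-gene comparison. Of 37 alternative values for the members' share, their median signal and both differences, 32 stayed within the interval of the reported value. The rest were shares or medians. Intervals on the differences are so wide that staying inside them shows little. Large minus small subunit was 5.48 points in the higher-signal 50% of peaks, against 18.7 points reported, and still lay inside. The share of members with a peak was 15.1% in the higher-signal 50% of optimal peaks (8.16% of all genes). It was 12.3% where the nearest start had to be the member's, ties included (11.3% of all genes). Without each replicate that share ran from 17.8 to 31.5%, and the median signal from 57.5 to 65.9 in the replicates' own units, which are not those of the pooled list. Leaving out replicate 2 took the members called from 20 to 13. With windows of 200 and 1000 bp the counts were 17 and 21 of 73, where 11.4% and 17.5% of all genes were called. The interval on shared minus single-gene promoters also excluded 0 at 1000 bp and with any overlap (both 0.898 to 40.0 points). All-gene shares by promoter class are not given for these settings. The cause of these shifts was not tested. The small subunit had 26 genes and single-gene promoters 19, which limits every difference of shares to wide intervals. No paired analysis was possible because both samples form a single group.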

Other observations

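Members with a peak were unevenly spread over the chromosome arms. On 2L 7 of 12 members had an optimal peak and on 2R 6 of 12, against 14.7% and 15.5% of all protein-coding genes there. On 3R it was 5 of 21 (16.7% of all genes), on 3L 2 of 17 (14.9%), and on X 0 of 11 (upper Wilson bound 25.9%; 13.02% of all genes). The arms were compared after the values were seen, with no test.

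Some genes sharing a promoter with a member that had no optimal peak also act in mitochondria. Mitofilin, for a protein of the inner membrane folds, starts 192 bp from mRpL35 (pooled signal 66.2), and ATPsynD, for a subunit of the ATP synthase, 95 bp from mRpL55 (53.8). Both pairs were named after their values were seen.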
